A study of Mus musculus with 12 samples.

Results

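The genes described here encode the receptors for glutamate and GABA. They were taken from the count table by symbol: the AMPA (Gria), kainate (Grik), NMDA (Grin1 to Grin3) and delta (Grid) subunits of the ionotropic glutamate receptors, the metabotropic glutamate receptors (Grm), the alpha, beta, delta, epsilon, gamma and rho subunits of the GABA-A receptor (Gabr) and the GABA-B receptor subunits (Gabbr), with Grina left out. The rule found 41 of the 17365 genes in the table. The level of a gene was taken as its CPM, its count scaled to the library total. Of the 41 genes, 23 had a mean above 1 CPM in at least 1 condition, 18 in EGF/FGF, 20 in BMP and 20 in BMP/FGF, and 16 did so in all 3 conditions.

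RNA-seq covered 12 libraries of mouse neural stem cells (NSCs) taken from the adult subventricular zone (SVZ) at 6 to 8 weeks of age and grown on laminin. The cultures were proliferating (EGF with FGF2), dormant (BMP4 alone, called d-qNSCs) or primed for return to the cell cycle (BMP4 with FGF2, called p-qNSCs), with each factor at 10 ng/ml and the BMP4 treatments lasting 3 days. Each condition held 2 replicates of the ANS4 line, of the MF1 strain, and 2 of the BL6 line, of the C57BL/6 strain, and no other allele or transgene is given for these libraries. A condition therefore rests on 4 libraries (n = 4) from 2 lines, and p-values measure the spread between these samples rather than between mice. Totals lay between 18069052 and 19451818 counts, so that a level of 3 counts equalled 0.154 to 0.166 CPM. The 9 neural stem cell markers summed to between 6166 and 7507 CPM in all 12 libraries, but their members moved: 6 were called higher and 3 lower in BMP than in EGF/FGF, with Vim at 2696 CPM in EGF/FGF and 4752 in BMP, Sox2 at 477 and 702, Nes at 570 and 128 and Fabp7 at 2413 and 480. The 6 proliferation markers summed to 2317 to 2794 CPM in EGF/FGF, 396 to 597 with BMP and 277 to 300 with BMP/FGF.

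Glutamate and GABA are the main excitatory and inhibitory transmitters of the adult brain. AMPA, kainate and NMDA receptors are cation channels, GABA-A receptors are chloride channels, and metabotropic glutamate and GABA-B receptors signal through G proteins. In the SVZ, neuroblasts release GABA that reaches the GABA-A receptors of the neighbouring stem cells, and astrocytes, which resemble SVZ stem cells in many of their genes, are known for group I and group II metabotropic glutamate receptors. A channel subunit that lacks its partners does not usually form a working receptor, so the makeup of the AMPA, kainate, NMDA and GABA-B families is given beside the levels of their genes.

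Promoters are shown for 3 genes that rose and 1 that fell in BMP, chosen after their values were seen. BMP signals act through Smad proteins, which can bind GC-rich elements of the letters GGCGCC. Of the 23 genes above 1 CPM, 14 had an entry among the RefSeq promoters of GRCm38.p6, with 15 promoters in all (Gabrb1 has 2). The 250 bases before the start are printed, 5′ to 3′ on the strand of the gene, for Grik3 (a kainate subunit with a large rise, chr4:125490446-125490695, + strand), Gabbr1 (the most abundant GABA-B subunit, chr17:37045716-37045965, + strand), Gria2 (an AMPA subunit that rose with no such element in its window, chr3:80802836-80803085, − strand) and Gabrg1 (a GABA-A subunit that fell, chr5:70842618-70842867, − strand). Capitals mark GGCGCC and the GC box GGGCGG, read on both strands.
Grik3: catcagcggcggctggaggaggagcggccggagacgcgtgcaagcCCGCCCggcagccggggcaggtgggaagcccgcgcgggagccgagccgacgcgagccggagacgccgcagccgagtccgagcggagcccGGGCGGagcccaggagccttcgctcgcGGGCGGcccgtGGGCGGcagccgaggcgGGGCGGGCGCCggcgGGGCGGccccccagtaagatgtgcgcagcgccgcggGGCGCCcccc
Gabbr1: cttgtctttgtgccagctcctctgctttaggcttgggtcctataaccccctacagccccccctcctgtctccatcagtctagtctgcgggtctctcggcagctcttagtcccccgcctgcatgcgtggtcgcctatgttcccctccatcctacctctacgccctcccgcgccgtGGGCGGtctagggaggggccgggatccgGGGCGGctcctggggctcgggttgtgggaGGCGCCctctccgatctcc
Gria2: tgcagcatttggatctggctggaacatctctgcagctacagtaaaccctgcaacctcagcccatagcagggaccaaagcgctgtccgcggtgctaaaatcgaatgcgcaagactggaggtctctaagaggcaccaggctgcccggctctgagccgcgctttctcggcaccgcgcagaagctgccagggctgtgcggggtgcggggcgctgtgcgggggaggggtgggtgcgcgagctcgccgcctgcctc
Gabrg1: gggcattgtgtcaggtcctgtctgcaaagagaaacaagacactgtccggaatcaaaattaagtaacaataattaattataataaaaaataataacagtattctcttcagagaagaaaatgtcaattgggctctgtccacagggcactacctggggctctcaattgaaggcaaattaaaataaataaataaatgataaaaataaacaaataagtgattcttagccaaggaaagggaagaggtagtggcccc
Grik3 held 2 copies of GGCGCC and 6 of GGGCGG, of which 1 pair shares 1 base, Gabbr1 held 1 and 2, and Gria2 and Gabrg1 held none. The window of Grm3, which also fell in BMP and is not printed, held 1 of each. The GC content of these windows was 82.0% for Grik3, 66.0% for Gabbr1, 64.8% for Gria2 and 35.6% for Gabrg1.

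GGCGCC stood in 6 of the 15 promoters (40.0%), those of Grik2, Grik3, Grik4, Gabbr1, Gabbr2 and Grm3, against 9.59% of all 32851 promoters of the same length. Of these 6 genes 5 were called higher in BMP than in EGF/FGF, against 40.6% of all tested genes, while Grm3 was 1.78-fold lower (edgeR FDR = 6.55e-08). Of the genes whose promoters lacked it, Gabra4, Gabrb1, Gria2 and Grik5 were also called higher and Gabrg1 lower, and Gabrg3, Grin1 and Grin2d were not called. Grin3a, Grin2a, Grin2b, Gria3 and Grm5, which were all called in this comparison, had no promoter entry. The receptor promoters were also richer in GC, with a median of 62.8% against 52.4% for all promoters. Among promoters with at least 60% GC the element stood in 6 of 11 receptor promoters (54.5%) and in 26.1% of all. GGGCGG stood in 8 of 15 (53.3%) against 32.7% of all. The letters CAGCACC (part of the site of the neuronal repressor REST), TGANTCA (AP-1), CCGGAAGT (ETS factors), TGACGTCA (CREB) and CAGCTG (an E-box) were in none of the 15, against 5.73%, 6.75%, 2.88%, 1.55% and 13.0% of all promoters. These matches describe the letters of the windows and were not tested against the expression values. The 15 receptor promoters are those of genes above 1 CPM, while the 32851 include genes of any level, so the 2 sets were not matched for expression.

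**Figure D1:**
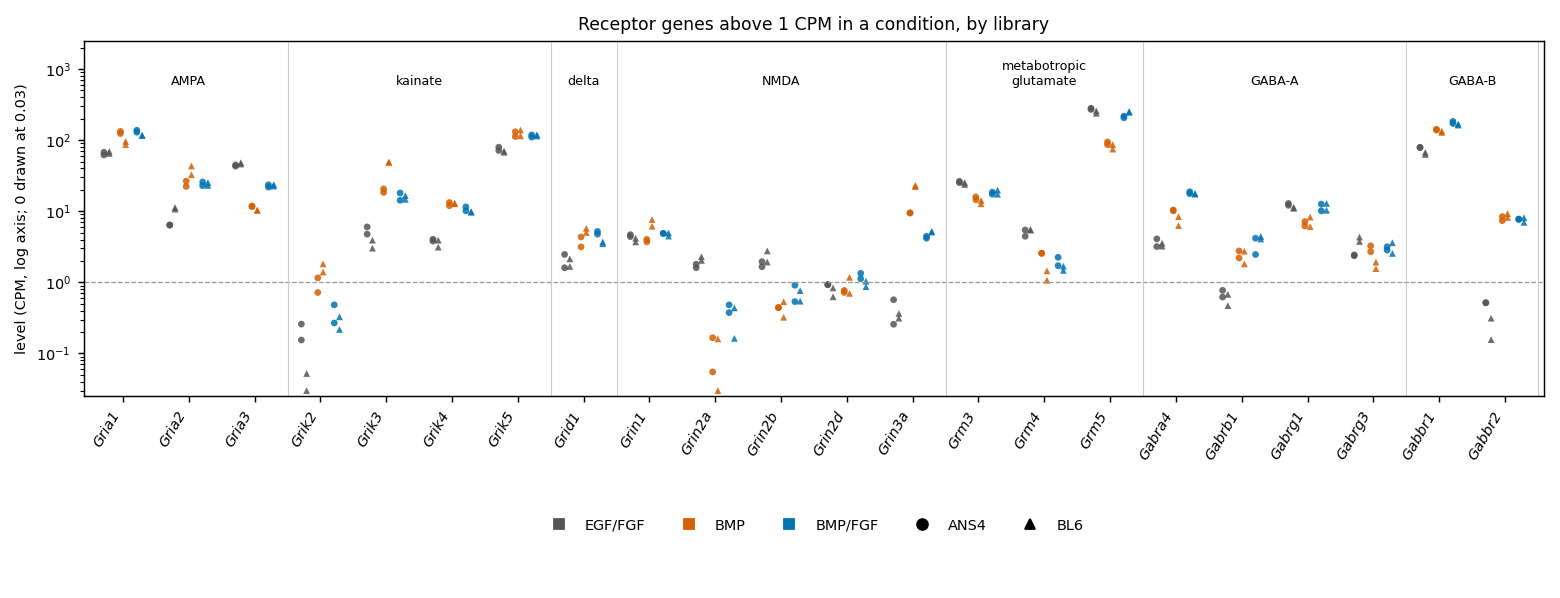
Level of 22 receptor genes above 1 CPM in at least 1 condition, in CPM on a log axis, with 1 point per library, colour for the condition and shape for the line; a value of 0 is drawn at 0.03 and the dashed line marks 1 CPM. Grm5 is the highest gene in EGF/FGF at 239 to 281 CPM, and Grin3a is spread from 0.257 to 23.1 CPM over the 12 libraries.

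Of the 41 genes, 26 passed the expression filter and were tested, and 15 were not. Between BMP and EGF/FGF, 15 of the 26 were higher in BMP and 7 lower with an FDR below 0.05 (two-sided quasi-likelihood test of edgeR, Benjamini-Hochberg over 13454 genes). Over all tested genes 40.6% were higher and 38.7% lower, so that 79.3% of the transcriptome was called in this comparison and a call by itself sets no gene apart. The median log2 fold change was 0.81 over the receptor genes and 0.02 over all genes. With the study's threshold of 1.5 on the log2 scale, 9 receptor genes were higher and 4 lower, where the share of all genes was 11.1% and 7.06%. Receptor transcripts together made up 0.0688 to 0.0750% of a library in EGF/FGF, 0.0836 to 0.0862% with BMP and 0.0992 to 0.105% with BMP/FGF, and these ranges did not overlap. In such bulk samples, fewer cells of a type and less RNA per cell cannot be told apart.

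The comparison of p-qNSCs with proliferating NSCs gave much the same tally. In BMP/FGF, 15 receptor genes were higher and 5 lower than in EGF/FGF, against 40.8% and 37.8% of all genes (78.6% in either direction), and 8 and 3 passed the fold threshold, against 10.8% and 6.24%. These 2 comparisons share the EGF/FGF libraries. Between BMP/FGF and BMP, the comparison of primed with dormant quiescence, 9 receptor genes were higher in BMP/FGF, 4 lower and 13 not called, against 19.9% higher and 21.2% lower among all genes (41.2% in either direction). Only Grin2a was higher past the fold threshold, and only Grin3a and Grik2 lower, against 0.929% and 0.795% of all genes. The count of 1 became 0 without BL6 BMP replicate 2 and 3 without ANS4 BMP/FGF replicate 1, and the 3 genes lower past the threshold in BMP/FGF than in EGF/FGF became 1 without ANS4 BMP/FGF replicate 2 or BL6 EGF/FGF replicate 1.

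**Figure D2:**
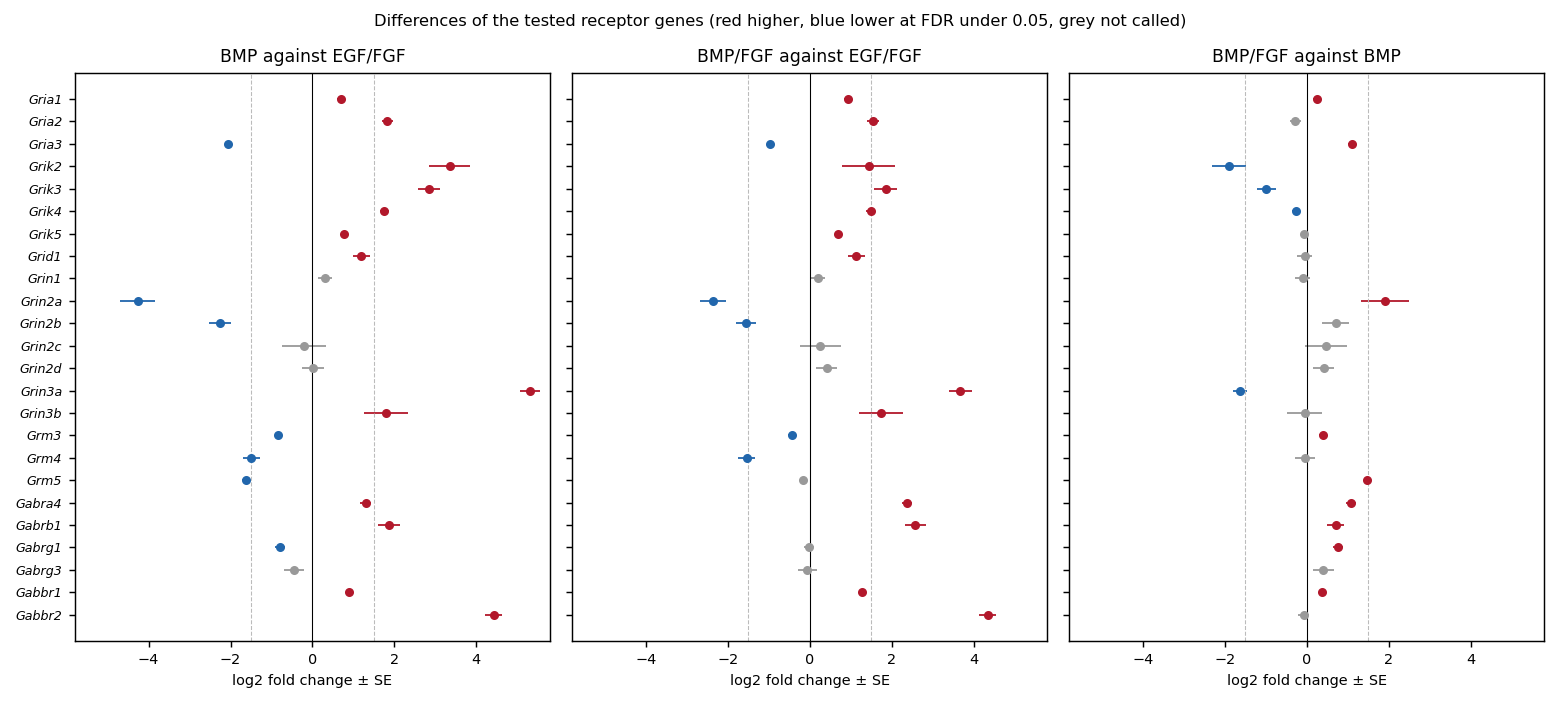
Log2 fold change with its SE (edgeR, 4 libraries against 4) of 24 tested receptor genes in the 3 comparisons, one panel each, ordered by family; red is higher and blue lower at FDR under 0.05, grey is not called, and dashed lines mark 1.5. Grin3a lies farthest to the right against EGF/FGF in BMP (5.31) and Grin2a farthest to the left (−4.27), and most points of the BMP/FGF against BMP panel lie inside the dashed lines.

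AMPA receptors carry most fast excitatory transmission, and their subunits are encoded by Gria1 to Gria4. In EGF/FGF, Gria1 and Gria3 were both well above Gria2, and quiescent cultures held more Gria1 and Gria2 and less Gria3. Gria3 stood at 44.7, 43.1, 46.1 and 48.1 CPM in the EGF/FGF libraries (ANS4 replicates 1 and 2, then BL6 replicates 1 and 2, an order kept for all values given per library), at 11.9, 11.6, 10.3 and 10.4 in BMP and at 21.8, 23.6, 22.5 and 23.7 in BMP/FGF. The 3 conditions did not overlap, with BMP lowest and BMP/FGF in between. Gria3 was 4.18-fold lower in BMP than in EGF/FGF (log2 fold change −2.06 ± 0.0793 SE, edgeR FDR = 8.84e-14) and 2.14-fold higher in BMP/FGF than in BMP (1.10 ± 0.0814, FDR = 1.80e-08).

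Gria2 encodes the subunit whose edited form makes AMPA receptors impermeable to calcium. It measured 6.41, 6.37, 10.7 and 11.3 CPM in EGF/FGF, 26.5, 22.2, 43.3 and 32.6 in BMP and 22.9, 25.8, 23.1 and 25.3 in BMP/FGF. All 8 quiescent libraries lay above all 4 proliferating ones, while BMP and BMP/FGF overlapped. The rise was 3.54-fold in BMP (log2 1.82 ± 0.139, FDR = 1.05e-09) and 2.92-fold in BMP/FGF (1.55 ± 0.141, FDR = 1.33e-08), and the difference between them was not called (−0.28 ± 0.127, FDR = 0.0889, edgeR).

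Gria1 stood at 67.5, 61.9, 69.2 and 65.0 CPM in EGF/FGF, at 132, 124, 95.7 and 86.5 in BMP and at 129, 137, 116 and 117 in BMP/FGF. It was 1.62-fold higher in BMP and 1.92-fold higher in BMP/FGF than in EGF/FGF (FDR = 1.63e-06 and 3.49e-08, edgeR). The excess of BMP/FGF over BMP (log2 0.24 ± 0.0902, FDR = 0.0398) is not firm, since the 2 groups overlapped and the call was lost under 13 of 22 alternative settings, with the ANS4 libraries alone among them (0.06, FDR = 0.460). It was also lost when ANS4 BMP/FGF replicate 2, BL6 BMP replicate 1 or 2 or BL6 BMP/FGF replicate 1 or 2 was left out (FDR = 0.0920, 0.115, 0.151, 0.0807 and 0.0837). Gria4 had 3 to 15 counts per library and was not tested.

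Per kilobase of the longest annotated transcript, Gria1 made up 55.2% of the AMPA subunit RNA in EGF/FGF, 78.8% in BMP and 76.6% in BMP/FGF (means of 4 libraries). Gria3 fell from 40.7% to 8.59% and 15.1%, and Gria2 moved from 3.86% to 12.5% and 7.98%. With the median transcript length the shares of Gria1 were 41.8%, 70.8% and 66.9%, and those of Gria3 54.0%, 13.5% and 23.0%. The leading subunit of the EGF/FGF cultures therefore depends on the length chosen, Gria1 with the longest and Gria3 with the median, while Gria1 led in BMP and BMP/FGF with both.

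Kainate receptors are made of low-affinity (Grik1 to Grik3) and high-affinity (Grik4, Grik5) subunits, and the high-affinity subunits need a low-affinity partner to form a channel. All 4 tested kainate genes were higher in BMP than in EGF/FGF, where 40.6% of all tested genes were. Grik3 was at 4.76, 6.01, 3.91 and 3.02 CPM in EGF/FGF, at 18.4, 20.6, 48.8 and 48.9 in BMP and at 18.0, 14.2, 14.7 and 16.6 in BMP/FGF. The BL6 BMP libraries stood above the other 10, and no condition overlapped another. Grik3 rose 7.17-fold in BMP (log2 2.84 ± 0.269, edgeR FDR = 2.17e-08) and 3.62-fold in BMP/FGF (1.86 ± 0.277, FDR = 7.86e-06).

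Grik3 was 1.98-fold lower in BMP/FGF than in BMP over both lines (log2 −0.98 ± 0.233, edgeR FDR = 0.00271). The 2 lines did not share this difference: it was −0.27 in ANS4 alone (FDR = 0.111) and −1.56 in BL6 alone (FDR = 3.36e-07). Grik2, another low-affinity subunit, was measured with few reads, with at most 5 counts in an EGF/FGF library, 13 to 34 counts in the BMP libraries and 4 to 9 in those of BMP/FGF. Its summed counts were 94 in BMP against 9 in EGF/FGF, a ratio of 10.9 (exact 95% interval of counting 5.53 to 24.7). From BMP to BMP/FGF it fell by 1.90 on the log2 scale (SE 0.409, FDR = 0.00129). Its rise in BMP/FGF over EGF/FGF is weak (1.45 ± 0.646, FDR = 0.0494, edgeR), as the groups overlapped and the call was lost under 14 of 21 alternatives. Those included leaving out ANS4 BMP replicate 1, BL6 BMP replicate 2, any 1 of the ANS4 BMP/FGF replicates 1 and 2, BL6 BMP/FGF replicate 2, ANS4 EGF/FGF replicate 2 or BL6 EGF/FGF replicate 1 or 2, with FDR from 0.0571 to 0.155.

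The high-affinity subunits differed less. Grik4 averaged 3.72 ± 0.406 CPM (SD) in EGF/FGF, 12.7 ± 0.560 in BMP and 10.3 ± 0.833 in BMP/FGF, a 3.38-fold and a 2.81-fold rise (FDR = 4.10e-11 and 5.48e-10, edgeR). Its lower level in BMP/FGF than in BMP was small (log2 −0.27 ± 0.0944, FDR = 0.0316) and was called in neither line alone (FDR = 0.176 in ANS4 and 0.0686 in BL6). It was lost too without ANS4 BMP replicate 1, ANS4 BMP/FGF replicate 2 and each of the 4 BL6 libraries of these conditions, with FDR from 0.0611 to 0.0840. Grik5 was the most abundant kainate gene, at 72.2 ± 5.18 CPM in EGF/FGF, 124 ± 12.7 in BMP and 116 ± 3.97 in BMP/FGF, a 1.70-fold and a 1.63-fold rise (edgeR FDR = 3.08e-08 and 9.89e-08). Per kilobase it held 94.3% of kainate RNA in EGF/FGF, 84.5% in BMP and 89.5% in BMP/FGF, so low-affinity subunits were the minority of transcripts in all conditions. Grik1 had 0 to 4 counts per library and was not tested.

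NMDA receptors made of Grin1 and Grin2 subunits open only when glutamate binds together with a co-agonist and the membrane is depolarized. Every NMDA receptor needs the obligatory subunit encoded by Grin1. Grin2 genes encode the glutamate-binding subunits, and Grin3 genes encode subunits that bind glycine and lower the calcium permeability. Grin3a rose from near the limit of detection in quiescence, Grin2a and Grin2b fell, and Grin1 was called in no comparison. Grin3a (chr4:49661611-49845744, GRCm38) stood at 0.569, 0.257, 0.313 and 0.365 CPM in EGF/FGF, at 9.51, 9.41, 22.2 and 23.1 in BMP and at 4.44, 4.18, 5.10 and 5.18 in BMP/FGF. The conditions did not overlap, and BL6 lay above ANS4 in BMP. The rise was 39.8-fold in BMP (log2 5.31 ± 0.251, edgeR FDR = 1.40e-12) and 12.8-fold in BMP/FGF (3.68 ± 0.288, FDR = 1.66e-09). In BMP/FGF Grin3a was 3.11-fold lower than in BMP (−1.64 ± 0.167, FDR = 7.55e-07), in ANS4 alone (−1.13, FDR = 8.82e-05) as in BL6 alone (−2.05, FDR = 1.11e-07).

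Grin2a stood at 1.60, 1.80, 2.04 and 2.29 CPM in EGF/FGF, but had only 1, 3, 3 and 0 counts in BMP and 9, 7, 3 and 8 in BMP/FGF. Its summed counts were 7 in BMP and 149 in EGF/FGF, a 20.3-fold lower level (exact 95% interval of counting 9.62 to 51.4), and the edgeR call was firm (FDR = 3.81e-08). In BMP/FGF it was 5.13-fold lower than in EGF/FGF (FDR = 2.95e-06, edgeR). The higher level in BMP/FGF than in BMP rests on 27 against 7 counts, a ratio of 3.83 (1.63 to 10.4), with overlapping libraries (FDR = 0.0143 in edgeR over both lines, 0.0491 in ANS4 alone and 0.136 in BL6 alone). Grin2b averaged 2.08 ± 0.480 CPM in EGF/FGF, 0.435 ± 0.0869 in BMP and 0.688 ± 0.182 in BMP/FGF, a fall of 4.77-fold and a 2.94-fold difference (FDR = 5.47e-07 and 1.84e-05, edgeR).

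Grin1 was at 4.24 ± 0.412 CPM in EGF/FGF, 5.37 ± 1.85 in BMP and 4.79 ± 0.214 in BMP/FGF. Its differences were 0.30 ± 0.176 for BMP against EGF/FGF, 0.20 ± 0.178 for BMP/FGF against EGF/FGF and −0.10 ± 0.174 for BMP/FGF against BMP on the log2 scale (FDR = 0.123, 0.314 and 0.666, edgeR). Grin2d lay between 0.626 and 1.34 CPM in the 12 libraries and Grin2c at 0.341 to 0.459 as condition means, and neither was called. Grin3b rose in BMP (1.80 ± 0.537, FDR = 0.00543) and in BMP/FGF (1.75 ± 0.544, FDR = 0.00726) at 1 to 20 counts per library. Exons of Grin3b lie antisense to Tmem259, those of Grin1 to Grin1os, those of Grin2b to Gm26653 and Gm14329 and those of Grin2d to Gm45441, and since the strand setting of the counting is not given in the sources used here, reads of these pairs cannot be told apart.

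Per kilobase of the longest transcript, Grin1 made up 64.4% of NMDA subunit RNA in EGF/FGF, 33.6% in BMP and 49.6% in BMP/FGF, and Grin3a 3.31%, 54.6% and 28.0%. Grin2a took 8.67% in EGF/FGF, 0.205% in BMP and 1.11% in BMP/FGF. With the median transcript length Grin2b led in EGF/FGF at 41.4%, ahead of Grin1 at 33.8%, so the leading NMDA gene of proliferating cultures depends on the length chosen. Grin3a led in BMP (47.7%) and Grin1 in BMP/FGF (40.2%) with that length too.

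**Figure D3:**
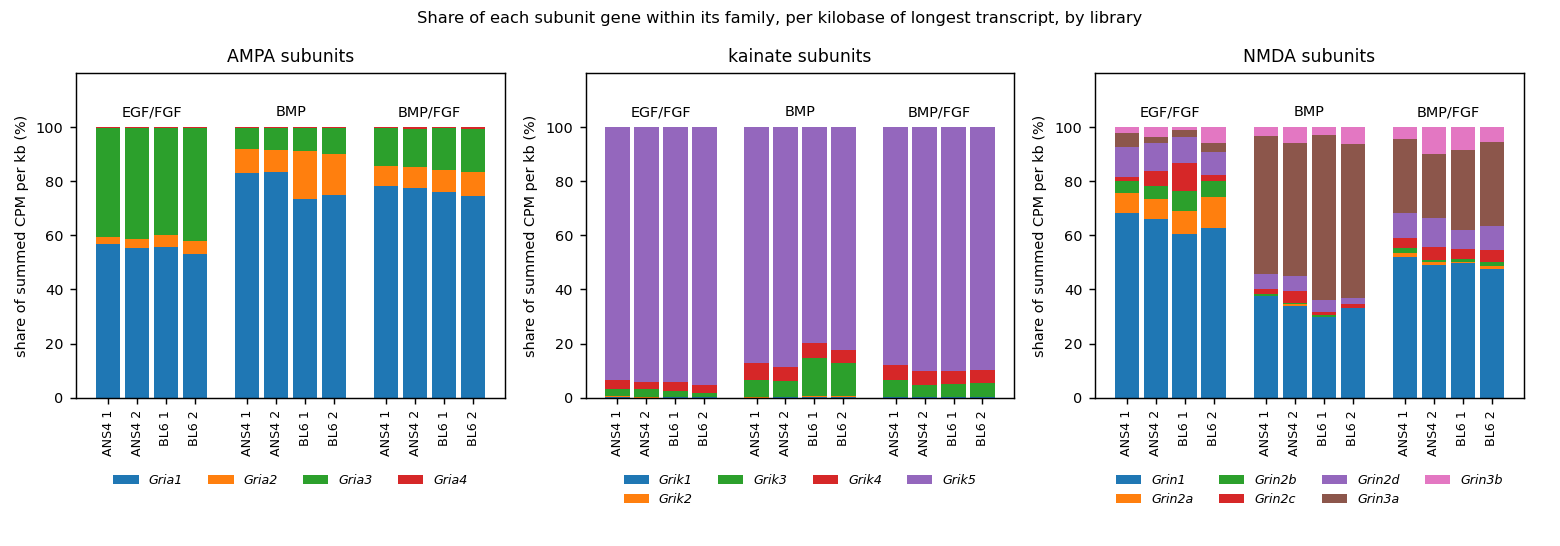
Share of each subunit gene in the summed CPM per kilobase of its family (AMPA, kainate, NMDA), in percent as stacked bars on an axis from 0, for each of the 12 libraries, by the longest annotated transcript. Gria3 takes 39.6 to 41.9% of the AMPA bars in EGF/FGF and 7.95 to 9.61% in BMP, Grik5 takes most of every kainate bar, and Grin3a takes 49.3 to 61.3% of the NMDA bars in BMP.

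Markers of neuroblasts and young neurons moved with Grin3a, Grik3 and Grik2. The 6 listed genes, with Dcx and Dlx2 among them, summed to 27.7 to 33.5 CPM in EGF/FGF, 480 to 499 in ANS4 and 924 to 1006 in BL6 cultures in BMP, and 164 to 186 in BMP/FGF. Between BMP and EGF/FGF 5 of the 5 tested were higher, against 40.6% of all genes. Tubb3 among them stood at 11.8 CPM in EGF/FGF and 168 in BMP. Between BMP/FGF and EGF/FGF 4 were higher and 1 lower, where 40.8% and 37.8% of all genes were. Between BMP/FGF and BMP 5 of 5 were lower, against 21.2% of all genes. Of the neuron markers 7 of the 7 tested were higher in BMP than in EGF/FGF, against 40.6% of all genes. Syt1 stood at 0.0518 CPM in EGF/FGF and 3.32 in BMP, and Snap25 at 2.31 and 8.23. In BMP/FGF 5 of the 7 were lower than in BMP, against 21.2% of all genes. Among the untested markers, Stmn2 of young neurons had condition means of 0.182 to 0.325 CPM and the neuronal Rbfox3 of 0.0259 to 0.121. Astrocyte markers summed to 1051 to 1309 CPM in EGF/FGF, 3054 to 3643 with BMP and 5568 to 5677 with BMP/FGF. Of the 5 tested, 4 were higher in BMP and 5 in BMP/FGF than in EGF/FGF, against 40.6% and 40.8% of all genes. The oligodendrocyte sums given below had the same order, which was also seen for Gabbr1 and Gabra4, described below. The oligodendrocyte precursor markers summed to 1522 to 1667 CPM in EGF/FGF, 783 to 829 in ANS4 and 1281 to 1467 in BL6 in BMP, and 814 to 896 in BMP/FGF. The microglia markers summed to at most 14.7 CPM and the endothelial and pericyte markers to at most 6.16 CPM in any library. Ependymal markers summed to 63.5 to 78.5 CPM in EGF/FGF, 207 to 242 with BMP and 197 to 214 with BMP/FGF. Of these, 3 of the 3 tested were higher in BMP and in BMP/FGF than in EGF/FGF, against 40.6% and 40.8% of all genes. Oligodendrocyte markers summed to 25.2 to 30.0 CPM in EGF/FGF, 159 to 181 with BMP and 250 to 264 with BMP/FGF, and neuron markers to 570 to 602, 867 to 1240 and 790 to 864. The part of these cell types in the receptor differences was not tested.

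The delta receptors resemble ionotropic glutamate receptors but act as synaptic organizers that bind cerebellins. Grid1 averaged 1.97 ± 0.408 CPM in EGF/FGF, 4.57 ± 1.10 in BMP and 4.28 ± 0.824 in BMP/FGF, a 2.28-fold and a 2.21-fold difference (edgeR FDR = 3.99e-05 and 6.96e-05).

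Metabotropic receptors carried the highest single CPM of the whole set, not scaled to transcript length, that of Grm5 in EGF/FGF. Grm5 encodes a group I receptor coupled to phospholipase C that is prominent in immature astrocytes. Grm5 (chr7:87584168-88134907, GRCm38) stood at 281, 270, 239 and 258 CPM in EGF/FGF, at 94.3, 86.5, 86.6 and 74.9 in BMP and at 206, 217, 252 and 246 in BMP/FGF. All BMP libraries lay below all others, and BMP/FGF overlapped EGF/FGF. The level was 3.10-fold lower in BMP than in EGF/FGF (log2 −1.63 ± 0.0886, edgeR FDR = 9.52e-12) and 2.78-fold higher in BMP/FGF than in BMP (1.48 ± 0.0885, FDR = 1.66e-09). Between BMP/FGF and EGF/FGF the difference was not called (−0.16 ± 0.0854, FDR = 0.101, edgeR).

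Grm3, a group II receptor that lowers cAMP and is common in astrocytes, had a similar order at a lower level. It stood at 25.2 ± 1.02 CPM in EGF/FGF, 14.3 ± 1.30 in BMP and 18.3 ± 1.18 in BMP/FGF, and was 1.78-fold and 1.35-fold lower in BMP and BMP/FGF than in EGF/FGF (FDR = 6.55e-08 and 0.000126, edgeR). It was 1.32-fold higher in BMP/FGF than in BMP (FDR = 0.00159), a difference called in BL6 alone (FDR = 0.00245) and not in ANS4 alone (FDR = 0.0638, edgeR). Grm4, a group III receptor, fell from 5.21 ± 0.513 CPM to 1.91 ± 0.770 in BMP and 1.78 ± 0.330 in BMP/FGF, by 2.81-fold and 2.90-fold (FDR = 3.08e-06 and 2.46e-06), with no call between the 2 quiescent conditions. Grm2, Grm6, Grm7 and Grm8 had 0 to 7 counts per library and were not tested.

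GABA-A receptors usually combine alpha and beta subunits with a gamma or delta subunit. Gabra4 (chr5:71569749-71658308, GRCm38) was the most abundant alpha subunit gene. It stood at 4.09, 3.19, 3.55 and 3.23 CPM in EGF/FGF, at 10.1, 10.4, 8.39 and 6.28 in BMP and at 17.7, 18.8, 17.4 and 17.8 in BMP/FGF. The 3 conditions did not overlap. The level was 2.46-fold higher in BMP than in EGF/FGF (log2 1.30 ± 0.138, edgeR FDR = 1.08e-07), 5.19-fold higher in BMP/FGF (2.38 ± 0.131, FDR = 1.26e-11) and 2.11-fold higher in BMP/FGF than in BMP (1.08 ± 0.117, FDR = 1.54e-06). The neighbouring Gabrb1 lies head to head with it on the other strand (chr5:71658113-72149037) and rose in the same order, from 0.635 ± 0.126 CPM to 2.38 ± 0.458 and 3.78 ± 0.891. Gabrb1 was 3.67-fold and 5.99-fold higher than in EGF/FGF (FDR = 4.51e-06 and 3.47e-08), and 1.63-fold higher in BMP/FGF than in BMP (FDR = 0.0103), called in BL6 alone (FDR = 0.00556) but not in ANS4 alone (FDR = 0.241, edgeR). Their first exons overlap in the annotation, so reads there cannot be assigned to one of them without strand.

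Of the gamma subunits, which place the receptor at synapses and give it its benzodiazepine site, Gabrg1 fell in BMP alone among the quiescent conditions by a call. Gabrg1 averaged 11.8 ± 0.819 CPM in EGF/FGF, 6.92 ± 1.03 in BMP and 11.5 ± 1.46 in BMP/FGF. It was 1.73-fold lower in BMP than in EGF/FGF (FDR = 9.82e-06), 1.71-fold higher in BMP/FGF than in BMP (FDR = 8.03e-05), and not called between BMP/FGF and EGF/FGF (log2 −0.02 ± 0.115, FDR = 0.879, edgeR). Gabrg1, Grm5, Gria3, Grm3 and Grin2a were called lower in BMP than in both other conditions, Grin2a at 0 to 3 counts per BMP library. Grik2, Grik3, Grik4 and Grin3a were called higher in BMP than in both. Gabrg3 stood at 2.36 to 3.22 CPM as a mean of each condition and was called in no comparison. Gabra2, Gabra3, Gabra5, Gabrb2, Gabre, Gabrr1 and Gabrr2 had 0 to 10 counts per library and were not tested.

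GABA-B receptors work as pairs of the 2 products of Gabbr1, which binds GABA, and Gabbr2, which couples to the G protein. Both rose in quiescence, but from very unequal levels. Gabbr1 stood at 79.4, 78.3, 67.3 and 62.9 CPM in EGF/FGF, at 142, 139, 128 and 134 in BMP and at 171, 183, 163 and 169 in BMP/FGF, with no overlap between the conditions. It was 1.87-fold higher in BMP (log2 0.90 ± 0.0602, edgeR FDR = 1.76e-10), 2.43-fold higher in BMP/FGF (1.28 ± 0.0603, FDR = 1.38e-12) and 1.30-fold higher in BMP/FGF than in BMP (0.38 ± 0.0588, FDR = 6.17e-05). Gabbr2 had 10, 10, 6 and 3 counts in EGF/FGF and stood at 7.37, 8.41, 8.18 and 9.24 CPM in BMP and 7.65, 7.76, 8.09 and 6.98 in BMP/FGF. Every quiescent library lay more than 10 times above every proliferating one. The fitted rise was 21.4-fold in BMP (4.42 ± 0.206, FDR = 1.20e-12) and 20.3-fold in BMP/FGF (4.34 ± 0.208, FDR = 1.72e-12), with no call between them (−0.08 ± 0.129, FDR = 0.661, edgeR). Per kilobase of the longest transcript, Gabbr2 was 0.459% of GABA-B RNA in EGF/FGF, 5.30% in BMP and 3.90% in BMP/FGF.

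By level per kilobase of the longest transcript, Grm5 was the highest of the 41 genes in EGF/FGF, at 32.5 ± 2.24 CPM per kb, where Grik5 stood at 19.2 ± 1.38 and Gabbr1 at 13.7 ± 1.56. In BMP, Grik5 (33.0 ± 3.38) and Gabbr1 (25.9 ± 1.12) lay above Grm5 (10.6 ± 0.994). In BMP/FGF, Gabbr1 (32.7 ± 1.62), Grik5 (30.7 ± 1.05) and Grm5 (28.6 ± 2.73) lay close together, neighbours differing by little more than their SDs. With the median transcript length, Grm5 was again the highest in EGF/FGF (58.2), while Gabbr1 (85.1) lay above Grik5 (33.0) in BMP, so the order of these genes depends on the length chosen. The sets of 5 highest genes by both lengths shared 4 in EGF/FGF and 5 in each of the others.

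The lines differed in how some receptor genes responded. A test of the line by condition interaction (edgeR, FDR under 0.05) called 5 of the 26 genes in BMP against EGF/FGF, 3 in BMP/FGF against EGF/FGF and 7 in BMP/FGF against BMP, where 8.9%, 4.93% and 13.4% of all genes were called. These counts rest on few libraries: they fell to 3 without ANS4 BMP replicate 2 or BL6 EGF/FGF replicate 2, to 0 without any 1 of 7 of the 8 libraries compared, and to 2 without ANS4 BMP/FGF replicate 1. The largest called difference was that of Grik3, whose level went from 5.39 to 19.5 CPM in ANS4 and from 3.47 to 48.8 in BL6 between EGF/FGF and BMP, so that the response was 1.92 ± 0.223 larger on the log2 scale in BL6 (FDR = 5.58e-05). Grin3a went from 9.46 to 4.31 CPM in ANS4 and from 22.7 to 5.14 in BL6 between the 2 quiescent conditions (difference of responses −0.93 ± 0.200, FDR = 0.00542). Grin1 stood at 3.86 CPM in BMP in ANS4 and at 6.89 in BL6, from 4.54 and 3.94 CPM in EGF/FGF (1.00 ± 0.236, FDR = 0.0132).

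Among the AMPA subunits Gria1 rose from 64.7 to 128 CPM in ANS4 and from 67.1 to 91.1 in BL6 in BMP (−0.58 ± 0.104, FDR = 0.00238, edgeR), whereas Gria2 averaged 24.4 CPM in both quiescent conditions in ANS4 but 38.0 in BMP and 24.2 in BMP/FGF in BL6 (−0.57 ± 0.174, FDR = 0.0365). Gabrg3 was 2.40 and 2.98 CPM in EGF/FGF and BMP in ANS4 but 4.04 and 1.74 in BL6 (−1.56 ± 0.321, FDR = 0.00603). Each line is 1 culture line of 1 strain with 2 replicates per condition, so strain and line cannot be told apart. In BMP the sums of the neuroblast, neuron, proliferation and oligodendrocyte precursor markers were higher in BL6 than in ANS4. Those of the astrocyte and oligodendrocyte markers were lower. By the mean of each line in BMP, the receptor genes Grik3, Grin3a, Gria2, Grin1 and Grid1 were higher in BL6, and Gria1, Grm4, Gabrg3 and Grm5 lower. The part of any cell type in the line difference was not tested.

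**Figure D4:**
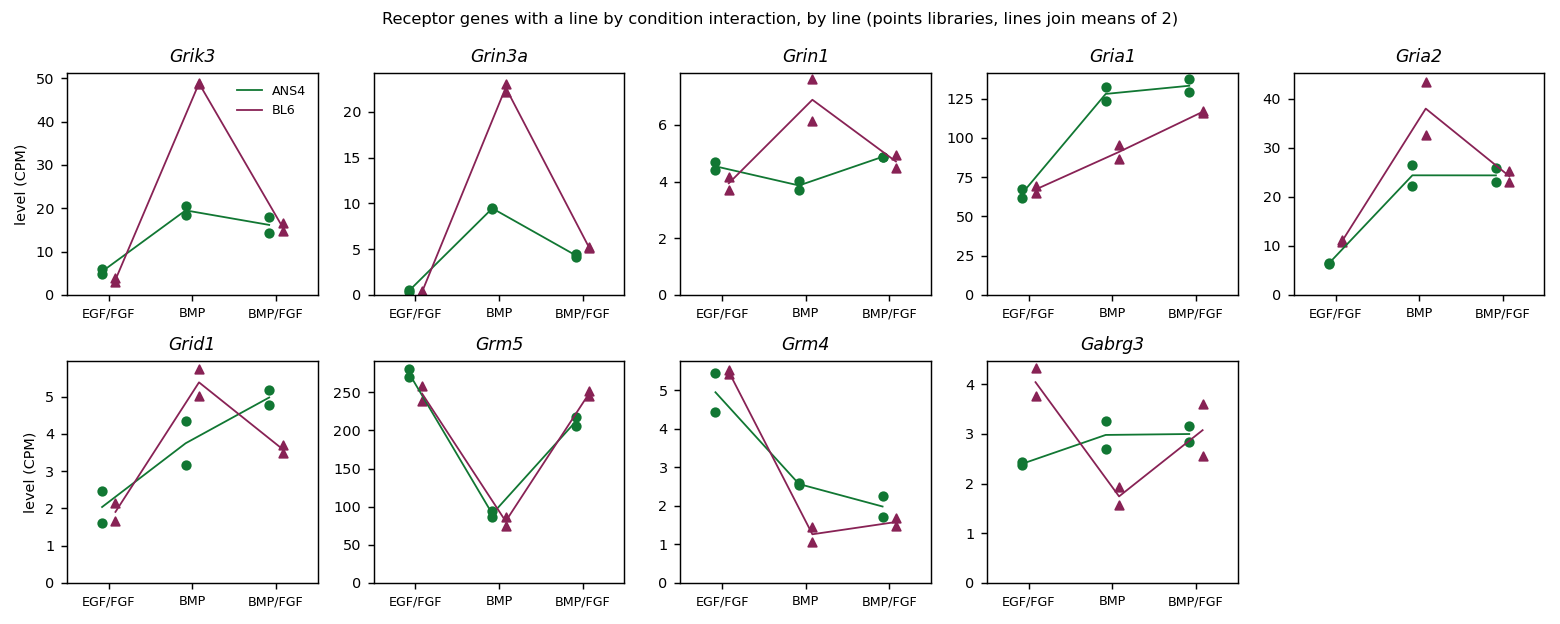
Level in CPM, on axes from 0, of 9 receptor genes with a line by condition interaction in at least 1 comparison, for ANS4 (circles) and BL6 (triangles) in the 3 conditions, with 1 point per library and lines joining the means of 2. Grik3 and Grin3a peak in BL6 in BMP at 48.8 and 22.7 CPM, and the 2 lines lie close together for both genes in BMP/FGF.

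Genes that work with the receptors were taken as 4 further lists of auxiliary subunits, scaffolds, transmitter handling, and chloride transport with RNA editing, 56 of them tested. Between BMP and EGF/FGF 31 were higher and 14 lower, between BMP/FGF and EGF/FGF 31 and 15, and between BMP/FGF and BMP 10 and 13, with median log2 fold changes of 0.51, 0.45 and −0.06. Over all tested genes the shares higher and lower were 40.6% and 38.7%, 40.8% and 37.8%, and 19.9% and 21.2%, so that the last pair of counts lies near the background. Of the 11 tested auxiliary subunits of AMPA and kainate receptors, 5 were higher and 3 lower in BMP, not above the 79.3% of all genes called in either direction. Shisa9, which slows or shapes AMPA currents, moved from 8.92 ± 0.544 to 54.3 ± 11.0 CPM (log2 2.58 ± 0.0966, edgeR FDR = 6.56e-14), and Cacng7 rose by 1.53 ± 0.103 (FDR = 1.94e-10). Neto2, an auxiliary subunit of kainate receptors, was lower (−0.82 ± 0.0652, FDR = 1.83e-09), as was Cacng8 (−0.94 ± 0.127, FDR = 2.03e-06). Between BMP/FGF and BMP, Cacng8 (0.45) and Neto2 (0.36) were higher and Neto1 (−0.66) and Shisa6 (−0.56) lower.

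Of 22 tested scaffolds and partners, 11 were higher and 7 lower in BMP than in EGF/FGF, close to the 79.3% of all genes called. Shisa7 (2.85 ± 0.305, FDR = 1.14e-07), which binds GABA-A receptors, and the postsynaptic scaffold Shank1 (2.21 ± 0.276, FDR = 8.65e-07) rose most among the genes averaging 1 CPM or more. Kctd12, a subunit of GABA-B receptor complexes, fell by 1.56 (SE 0.0908, FDR = 2.62e-11, edgeR) while both GABA-B receptor genes rose. Homer1, which ties group I metabotropic receptors to calcium stores, fell by 1.21 (FDR = 2.90e-10), from 55.8 ± 1.65 CPM in EGF/FGF to 24.4 ± 2.37 in BMP, and unlike Grm5 it stayed there in BMP/FGF (24.2 ± 2.05). In BMP/FGF against BMP, 1 of the 22 was higher and 4 lower, against 19.9% and 21.2% of all genes, with Shisa7 (−0.87) and Shank2 (−0.56) among the latter.

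Of 17 tested genes of transmitter handling, 12 were higher and 4 lower in BMP than in EGF/FGF, where 40.6% and 38.7% of all genes were, with a median log2 fold change of 1.37 against 0.02 over all genes. The glutamate transporters Slc1a1 (4.31 ± 0.208, FDR = 1.89e-12) and Slc1a2 (3.45, FDR = 2.52e-15) rose most among those of at least 1 CPM, and the glutaminase Gls2 (−2.22 ± 0.301, FDR = 2.30e-06, edgeR) fell. Slc1a2 stood at 29.6 ± 4.09 CPM in EGF/FGF, 329 ± 51.1 in BMP and 610 ± 23.4 in BMP/FGF. In BMP/FGF against BMP, 5 of the 17 were higher, 5 lower and 7 not called, against 19.9% and 21.2% of all genes higher and lower. The GABA transporter Slc6a11 (1.11 ± 0.0793, FDR = 1.21e-08) and Slc1a2 (0.95) were higher, while Slc1a1 (−0.81 ± 0.153, FDR = 0.000446, edgeR; 38.0 CPM in BMP and 20.5 in BMP/FGF) and the GABA-synthesizing enzymes Gad1 (−1.43 ± 0.228, FDR = 8.63e-05) and Gad2 (−1.13 ± 0.149, FDR = 1.31e-05) were lower. Of 6 tested genes for chloride transport, RNA editing and GABA-A modulation, 3 were higher and none lower in BMP, against 40.6% and 38.7% of all genes, with Dbi (0.74 ± 0.0985) and Adarb1 (0.58 ± 0.0950), which edits the Gria2 transcript, among them. Slc12a2, which loads chloride into immature cells, stood at 118 to 128 CPM in the 3 condition means and Slc12a5, which extrudes it in neurons, at 2.44 to 2.68, and neither was called in any comparison (lowest FDR = 0.190, edgeR).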

How the data were processed

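RNA-seq of 12 libraries was used. The authors trimmed reads with Trim Galore (0.5.0), quantified them with kallisto (0.44.0) on the mm10 transcriptome and deposited estimated counts per gene, summed with tximport. The authors also deposited log2-scale rlog values from DESeq2 (1.27.32), which were used here only in 1 alternative. Whether counting used strand is not given in the sources used here.

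Estimated counts were taken as integers, with any decimals dropped, and genes were kept by edgeR's filterByExpr (13454 tested, 3911 not). Each comparison was fitted on all 12 libraries with TMM factors and line and condition as terms (edgeR 4.0.16 quasi-likelihood F-test, R 4.3.3, two-sided), with Benjamini-Hochberg adjustment over all tested genes. The SE is the log2 fold change divided by the square root of F. Line by condition terms were tested in a second fit. The fits were tested on simulated data. CPM used the library total. Intervals of count ratios are exact and, like the floor of 3 counts, cover counting error only.

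Positions and transcript lengths came from GENCODE vM21 (GRCm38), with all 41 genes matched by Ensembl ID. Promoters came from RefSeq (GRCm38.p6) and were searched on both strands. Promoters are shown in place of the protein sequences first planned, and those printed were chosen after their genes' values were seen. Receptor genes above 1 CPM were named, except that a few genes, which enter all counts and sums, are not reported here. From each list of partner genes, up to 2 rises and 2 falls were named per comparison with BMP among called genes of at least 1 CPM. Slc1a1 between BMP/FGF and BMP and the single marker genes were chosen after their values were seen. The members and lists were chosen with earlier results of these data known.

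Alternatives covered normalization (DESeq2 size factors, library size), the test (DESeq2 1.42.0 Wald, limma 3.58.1 on rlog values), no filter, no line term, each line alone, each library left out, a fit of the compared libraries only, a replicate block and the transcript length. The labels number replicates within a line, but do not say that they were separate cultures, so p-values measure the spread between these samples, which may be technical.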

Additional observations from a re-analysis of the deposited data

Results flagged for a closer look

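The lines differed in the response of several receptor genes by the edgeR interaction test (BL6 minus ANS4, log2, 2 libraries per line and condition). Between BMP and EGF/FGF the difference was 1.92 for Grik3 (SE 0.223, FDR = 5.58e-05), 1.00 for Grin1 (FDR = 0.0132), −0.58 for Gria1 (FDR = 0.00238), −1.20 for Grm4 (FDR = 0.0231) and −1.56 for Gabrg3 (FDR = 0.00603). Gabrg3 was higher in BMP than in EGF/FGF in ANS4 (2.98 CPM in BMP) and lower in BL6 (1.74 CPM against 4.04), and Grin1 moved from 4.54 to 3.86 CPM in ANS4 and from 3.94 to 6.89 in BL6.

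Between BMP/FGF and EGF/FGF the difference was −0.75 for Gria2 (FDR = 0.0423) and 0.42 for Grm5 (FDR = 0.0231). Grm5 stood at 212 CPM in BMP/FGF and 276 in EGF/FGF in ANS4, and at 249 and 248 CPM in BL6.

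Between BMP/FGF and BMP the difference was 0.37 for Gria1 (FDR = 0.0208), −0.57 for Gria2 (FDR = 0.0365), −0.92 for Grid1 (FDR = 0.0434), −1.29 for Grik3 (FDR = 0.000198), −0.81 for Grin1 (FDR = 0.0290), −0.93 for Grin3a (FDR = 0.00542) and 0.47 for Grm5 (FDR = 0.00712, all edgeR).

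A single library stood apart from the other 3 of its condition, with a gap above Dixon's 95% critical value, in 3 of 69 sets of 4 libraries, where chance gives about 1 in 20. Grin1 was at 4.47 CPM in BL6 BMP/FGF replicate 2 (others 4.87 to 4.94), Grin2d at 1.18 CPM in BL6 BMP replicate 1 (others 0.698 to 0.770) and Grm4 at 4.45 CPM in ANS4 EGF/FGF replicate 1 (others 5.42 to 5.53).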

How the results depend on the processing

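Of 1204 recomputed values of the 55 called log2 fold changes, 1163 kept direction and call, 41 lost the call and 0 changed sign, and 46 of the 55 passed FDR under 0.05 under every alternative run. Counts past the fold threshold depended most on the values used. With limma on rlog values, which are shrunken by construction, 4 genes were higher and 1 lower in BMP than in EGF/FGF, 5 and 0 in BMP/FGF than in EGF/FGF, and 0 and 0 in BMP/FGF than in BMP. With only the 8 libraries compared, 0 genes were higher past the fold threshold in BMP/FGF than in BMP. In ANS4 alone, 1 gene was lower past the threshold in BMP/FGF than in EGF/FGF, and 1 was lower in BMP/FGF than in BMP, with 0 past the threshold. For the line by condition term, the DESeq2 Wald test called 2 genes in BMP against EGF/FGF and 4 between the quiescent conditions, and without the filter 1 was called for BMP/FGF relative to EGF/FGF. The cause of these shifts was not tested.

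With 1 library left out, genes past the fold threshold ranged from 0 (without BL6 BMP replicate 2) to 3 (without ANS4 BMP/FGF replicate 1) for the rise in BMP/FGF over BMP, and from 1 (without ANS4 BMP/FGF replicate 2 or BL6 EGF/FGF replicate 1) to 3 for lower in BMP/FGF than in EGF/FGF. Line by condition calls ranged from 3 (without ANS4 BMP replicate 2 or BL6 EGF/FGF replicate 2) to 5 in BMP against EGF/FGF, from 2 (without ANS4 BMP/FGF replicate 1) to 7 between the quiescent conditions, and from 0 to 3 in BMP/FGF against EGF/FGF, where leaving out any 1 of the ANS4 libraries or BL6 BMP/FGF libraries of that comparison, or BL6 EGF/FGF replicate 1, left 0. The interactions therefore rest on few libraries. By the median transcript length the level was 58.2 CPM per kb for Grm5 in EGF/FGF. The number of genes above 1 CPM stayed within 1 of its value.

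Same-numbered replicates showed no shared deviation over the tested genes (correlations of −0.0757 to 0.0596). With a single difference per line and condition, this cannot show whether the numbers pair the samples. With a replicate block, 15 genes were higher and 7 lower in BMP than in EGF/FGF, 14 and 5 in BMP/FGF than in EGF/FGF, and 8 and 4 in BMP/FGF than in BMP. Genes of a few counts per library, such as Grik2, Grin2a and Grin3b, are limited by depth.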
